A study of Micropterus salmoides with 6 samples.

Results

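The genes described here are the collagens of the largemouth bass (Micropterus salmoides) and the proteins that fold, modify, trim and cross-link them, measured in intestine by RNA-seq. They were taken from the deposited gene table by name: 65 genes by their symbol (collagen chains, serpinh1, p4ha, p3h, plod, lox, bmp1, pcolce and sparc) and 46 more by a description that begins with "collagen alpha", which gives 111 of 38342 genes. By the chain type in the symbol or description, 21 are fibrillar collagens, 18 are basement membrane collagens (types IV, VII, XV and XVIII) and 46 are other collagens. A further 24 are processing proteins, called enzymes below although serpinh1, pcolce and sparc are not catalysts and p3h4 is annotated as inactive. The 2 remaining matches, bmp15 and bmp16, are growth factor genes that share the first letters of bmp1. The rule reads names and not values, but it was written with earlier results of these data known. No member is annotated as type III.

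Fish kept at 34 °C for 9 h, the heat group, were compared with fish kept at 26 °C for the same 9 h, the control group. The labels name no other treatment, and all fish, of 25.2 ± 3.6 g, had been acclimated at the control temperature for 2 weeks. Each temperature was run in 3 parallels, and each of the 6 libraries holds RNA of the pooled intestine of 3 fish from a single parallel. The spread between libraries is therefore a spread between pools and is smaller than that between single fish.

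Collagens are triple helices of 3 alpha chains. In the endoplasmic reticulum, proline residues are hydroxylated by the prolyl 4- and 3-hydroxylases and lysine residues by the lysyl hydroxylases (plod), and the chaperone HSP47, encoded by serpinh1, binds the folded helix. After secretion the C-terminal propeptide of the fibrillar types is cut off by BMP1, helped by the enhancer PCOLCE, and lysyl oxidases cross-link the chains. Fibrillar types bear the tension of the tissue, type IV forms the sheet under epithelia and around muscle and vessels, type VI forms beaded filaments between cells and fibrils, and FACIT collagens decorate fibril surfaces. In the gut wall, fibroblasts and smooth muscle cells are the main makers of interstitial collagen.

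The libraries held 8244328, 15728903 and 14376785 counts at 34 °C and 28822509, 13887815 and 12254616 counts at 26 °C. Control replicate 1 stood apart: its log expression correlated at 0.875 and 0.853 with the other control libraries, which correlated at 0.932 with each other. In heat replicate 1, long non-coding transcripts took 17.5% of the counts, against 6.97 to 7.79% in the other heat libraries and 3.39 to 9.68% in the control libraries. Values between libraries are therefore given as CPM, counts scaled to 1000000 of a library size scaled by edgeR's TMM factors. Groups are called apart or overlapping in CPM unless TPM is named. TPM, which also divides by gene length, serves to compare genes and to take ratios inside a library, and a group mean of TPM is given as a level. In TPM, 24 of the 65 tested members lay lower at 34 °C without overlap between the groups, where 9.31% of all tested genes did, and 5 lay higher, where 7.71% did. Of the intestinal epithelium markers, 7 of 8 measured genes were tested and summed to 7899 to 8647 CPM at 34 °C and 5630 to 24035 CPM at 26 °C, the highest value being control replicate 1. Most of each sum was the single gene apoa1b, at 5649, 6210 and 5599 CPM at 34 °C and 18716, 3466 and 6683 CPM at 26 °C. The marker cdx4 had no reads.

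Collagen transcripts summed to a smaller share of the counts at 34 °C. The 85 collagen genes together had 5268, 3541 and 3367 CPM in the heat libraries, against 9274, 6057 and 7767 CPM in the control libraries (4059 ± 1051 and 7700 ± 1610, SD, n = 3 each), and no heat library reached the lowest control library. All 111 members made up 0.538, 0.426 and 0.414% of the counts at 34 °C and 0.792, 0.722 and 0.828% at 26 °C. In a bulk sample, fewer collagen-making cells and less collagen RNA per cell cannot be told apart.

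Of the 111 members, 65 passed the count filter and were tested, 31 had reads but stayed below it, with at most 18 counts in any library, and 15 had no reads. A total of 58 of the 65 were above the filter's minimum of 0.708 CPM in every library, while LOC119898290 and col2a1b passed through a single group. With all 6 libraries, 2 members passed edgeR's quasi-likelihood test at an adjusted p of 0.05, both lower at 34 °C, and 0 were higher. Among all 20326 tested genes 0.984% passed in either direction and 0.394% passed as lower. The common biological coefficient of variation, the spread between pools of a group beyond counting error, was 0.436. Without adjustment, 24 members (36.9%) were lower at p under 0.05, where 9.78% of all tested genes were, and 5 (7.69%) were higher, where 6.86% of all were. In 24 members (36.9%) every heat library lay below every control library, as in 14.4% of all tested genes, and in 6 members (9.23%) every heat library lay above, as in 11.5% of all. The log2 fold change was below 0 in 47 of the 65 members (72.3%), where 57.9% of all tested genes were below 0, with a median of -0.64 over the members and -0.12 over all tested genes. LOC119898290 and col2a1b are among the 24 lower members, and their way through the filter fixed this direction. Without them 22 of 63 members lay lower without overlap (34.9%), 45 were below 0 (71.4%) and the median was -0.63. LOC119883761 is still counted among these 22 and 45. The growth factor gene bmp16 is counted in all these shares of the members, and is lower by either measure.

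**Figure D1:**
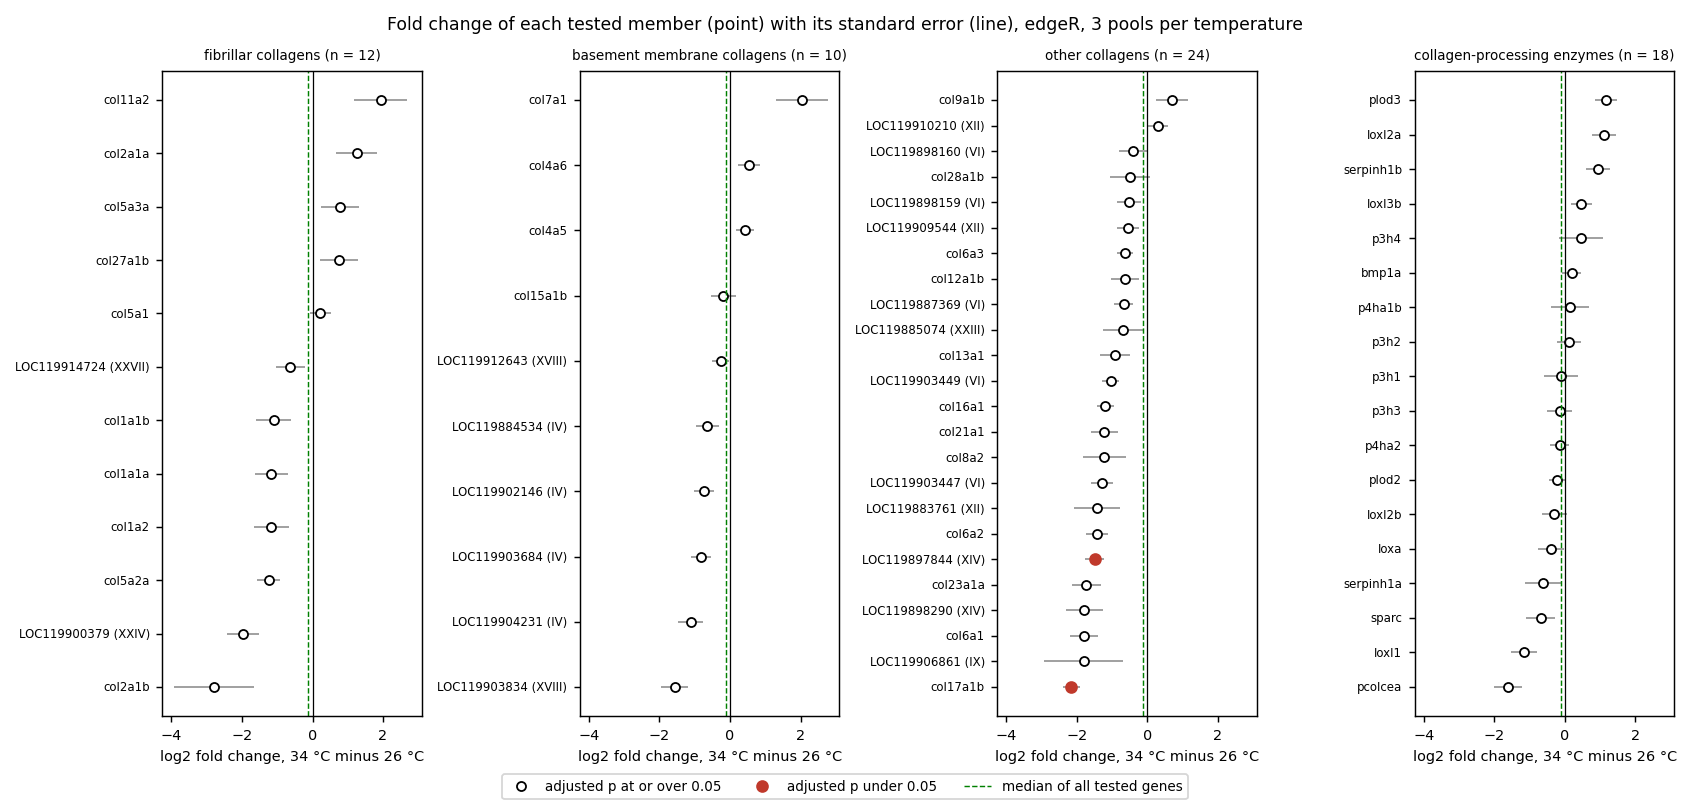
Log2 fold change (34 °C minus 26 °C, horizontal axis) of each tested collagen and enzyme gene, with its standard error as a line, in 4 panels by class. The growth factor gene bmp16 is not drawn. The 2 filled points are col17a1b and LOC119897844. The 24 other collagens lie left of 0 apart from 2, while the 18 enzymes lie on both sides of the dashed line at -0.12, the median of all tested genes.

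The fit without control replicate 1 was looked at because that library stood apart. There 10 of 71 tested members (14.1%) were lower, where 4.11% of all tested genes were, and 1 (1.41%) was higher, where 4.61% of all were. The 10 were col6a1, col6a2, LOC119903447 and LOC119903449 of type VI, col13a1, col16a1, col17a1b, col21a1, the type XIV-like LOC119897844 and the type XXIV gene LOC119900379. The member that was higher was col11a2. Leaving out any of the other 5 libraries left 0 members past the threshold, and between 0 and 10 of all genes. DESeq2 on the same counts called 12 members lower (18.5%), where it called 3.68% of all tested genes, and 1 member, plod3, higher (1.54%), where it called 3.38% of all.

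By class, the counts are set beside the same shares of all tested genes, of which 57.9% were below 0, 14.4% lay lower and 11.5% higher without overlap. The other collagens, which are those outside the fibrillar and basement membrane types, had a median log2 fold change of -1.12, with 22 of 24 below 0 (91.7%), 13 lower without overlap (54.2%) and 0 higher without overlap. Leaving out LOC119898290 gave a median of -1.04 and 12 of 23 lower without overlap, with LOC119883761 still among the 12. The fibrillar collagens had a median of -0.87, with 7 of 12 below 0 (58.3%), 3 lower and 2 higher without overlap. Leaving out col2a1b gave a median of -0.63, with 6 of 11 below 0 and 2 lower without overlap. The basement membrane collagens had a median of -0.45, with 7 of 10 below 0 (70.0%), 5 lower and 1 higher without overlap. Over the tested basement membrane genes found by symbol alone, which are col4a5, col4a6, col7a1 and col15a1b, the median had the other sign, 0.49. This leaves out the alpha-1-like and alpha-2-like type IV genes and the type XVIII genes, all found by description. The enzymes had a median of -0.13, close to the -0.12 of all genes, and 10 of 18 below 0 (55.6%), close to the share of all genes. Whether these medians differ between classes was not tested. Leaving out control replicate 1 gave medians of -1.01 for the other, -0.70 for the fibrillar and -0.29 for the basement membrane collagens and -0.10 for the enzymes, beside 0.01 for all genes. The fibrillar median moved with several settings. Over the 18 fibrillar genes with any read, without the count filter, it was -0.03. It was -0.22 with limma on log2(TPM + 1), -0.44 over symbol matches only and -0.70 to -0.44 with a library left out.

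By library, the median of the other collagens, centred on each gene's mean, was -0.40, -0.48 and -0.53 on the log2 scale at 34 °C and 0.18, 0.41 and 0.76 at 26 °C. These values did not overlap. The basement membrane median was -0.02, -0.31 and -0.34 at 34 °C and 0.40, 0.01 and 0.15 at 26 °C. There too the groups were apart, but narrowly, between heat replicate 1 and control replicate 2. The fibrillar median was 0.17, -0.50 and -0.32 at 34 °C and -0.12, 0.29 and 0.47 at 26 °C, so heat replicate 1 lay above control replicate 1. For the enzymes it was 0.18, -0.06 and 0.06 at 34 °C and -0.13, -0.22 and 0.19 at 26 °C, with the groups mixed.

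Marker genes of the collagen-making cells, and those of other cell types, had mostly negative fold changes, where 57.9% of all tested genes were below 0. Of the smooth muscle markers, 3 of 11 tested genes passed as lower (synm, smtna and lmod1b), where 0.394% of all tested genes did. In 10 of the 11 the log2 fold change was below 0, and the median was -1.07. In 8 of the 11 every heat library lay below every control library, where 14.4% of all tested genes did. In 0 every heat library lay above, where 11.5% of all did. The list summed to 5459 to 6182 CPM at 34 °C and 6519 to 13957 CPM at 26 °C. The 3 lower genes had log2 fold changes of -1.98, -2.10 and -1.81 with edgeR adjusted p of 0.0285, 0.0325 and 0.0415, and up to 0.219, 0.210 and 0.269 with a library left out. None of the 11 genes was without reads. Of the fibroblast markers, 0 of 10 tested passed, 9 were below 0 and the median was -0.52. In 5 of the 10 every heat library lay below every control library, and in 0 every heat library lay above. Their sum was 234 to 278 CPM at 34 °C and 258 to 442 CPM at 26 °C. None of the fibroblast markers was without reads either. Without control replicate 1 the median was -0.94 for the smooth muscle markers, with 5 of 11 lower, and -0.51 for the fibroblast markers, with 0 of 10. In that fit 4.11% of all tested genes were lower.

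Markers of other cell types were mostly below 0 as well. Of the blood markers, 4 of 5 tested were below 0, with a median of -0.49 and a sum of 399 to 469 CPM at 34 °C and 513 to 712 CPM at 26 °C. Of the endothelial markers, 8 of 10 were below 0, with a median of -0.38 and a sum of 172 to 188 CPM at 34 °C and 185 to 219 CPM at 26 °C. Of the epithelial markers, 6 of 7 were below 0 with a median of -0.31, which was 0.44 without control replicate 1. In these 3 lists 0 genes passed with all 6 libraries. Lower without overlap were 2 of 5 blood, 1 of 10 endothelial and 1 of 7 epithelial markers, and 0, 1 and 1 lay higher. Of 9 measured skeletal muscle markers, ckma, ckmb and mylpfa had no reads, 5 stayed below the filter, and actc1a, an actin of striated muscle, was tested. It had 39.4, 34.2 and 35.9 CPM at 34 °C and 171, 78.9 and 105 CPM at 26 °C, without overlap (log2 fold change -1.70, SE 0.33, edgeR adjusted p = 0.0608, and -1.32 with 0.0150 without control replicate 1). The summed list was 35 to 39.4 CPM at 34 °C and 81.8 to 176 CPM at 26 °C. The bone marker sp7 had no reads. The part of a changed cell makeup in the collagen values was not tested.

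**Figure D2:**
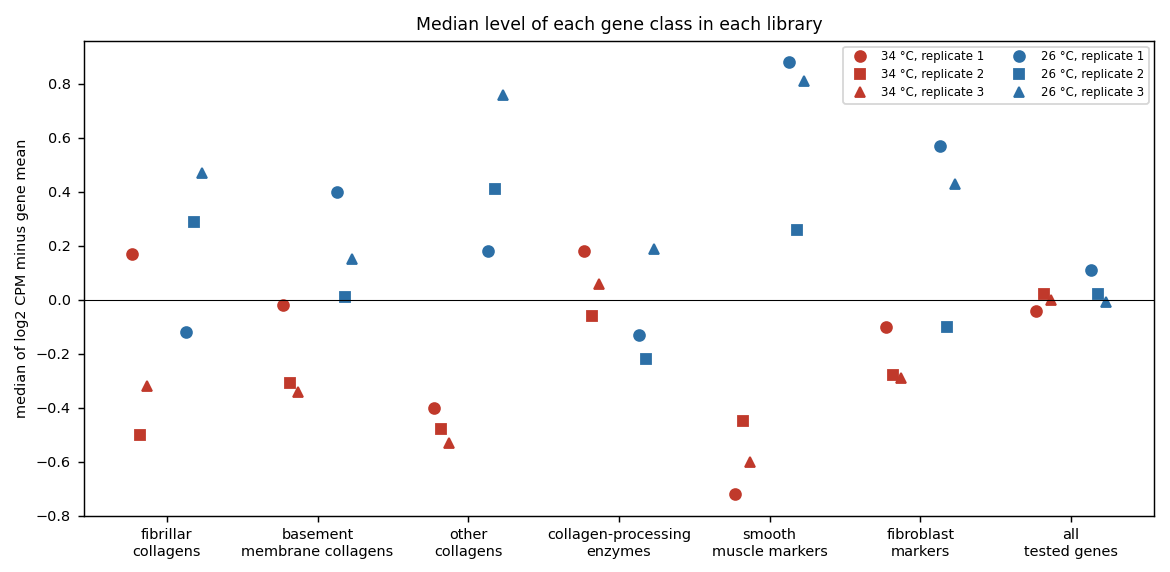
Median over each gene class of log2 CPM minus the gene's mean over 6 libraries (vertical axis), for each library (symbols 1, 2 and 3 are the replicates, 34 °C left and 26 °C right in each class). The heat and control libraries are apart in the other collagens and the smooth muscle markers, narrowly apart in the basement membrane collagens, and mixed in the enzymes.

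Type I chains, which form the main fibrils of the gut wall, were the most abundant members by TPM. The chain gene col1a1b averaged 196 ± 39.2 TPM at 34 °C and 416 ± 103 TPM at 26 °C, col1a2 185 ± 31.7 and 410 ± 118 TPM, and col1a1a 168 ± 39.9 and 379 ± 55.4 TPM (SD, n = 3 each). In CPM, col1a1a had 835, 374 and 369 at 34 °C and 1611, 823 and 1115 at 26 °C. The related col1a1b had 892, 426 and 414 CPM at 34 °C and 1821, 760 and 1129 CPM at 26 °C. For col1a2 the values were 790, 405 and 377 CPM at 34 °C and 1818, 733 and 986 CPM at 26 °C. In all 3 genes heat replicate 1 lay above control replicate 2, so the groups overlapped in CPM, and replicate 1 was the highest library of each group. In TPM the groups were apart in all 3 genes, at 144 to 214 TPM at 34 °C and 325 to 436 TPM at 26 °C for col1a1a, 173 to 241 and 319 to 525 TPM for col1a1b, and 163 to 222 and 319 to 544 TPM for col1a2. Their log2 fold changes were -1.17 (SE 0.47), -1.10 (SE 0.49) and -1.17 (SE 0.49), with edgeR adjusted p of 0.266, 0.313 and 0.284, and limma on log2(TPM + 1) gave -1.19, -1.07 and -1.12 with adjusted p of 0.292, 0.377 and 0.347. The copies col1a1a and col1a1b are paralogues whose shared reads the counting could have split between them.

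Type V chains are built into type I fibrils and limit their width, and their genes had fold changes of either sign. The col5a2a gene had 107, 61.2 and 73.2 CPM at 34 °C and 235, 148 and 186 CPM at 26 °C, every heat library below every control library (log2 fold change -1.24, SE 0.32, edgeR adjusted p = 0.118). For col5a1 the values were 415, 273 and 292 CPM at 34 °C and 279, 246 and 314 CPM at 26 °C, which overlapped (0.22, SE 0.30, adjusted p = 0.754). In TPM its groups were apart and higher at 34 °C, at 78.2, 80.4 and 83.4 TPM against 52.9, 67.8 and 75.5 TPM at 26 °C. The third tested chain, col5a3a, was low, at 4.72 ± 2.17 CPM at 34 °C and 2.75 ± 1.39 CPM at 26 °C.

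The remaining fibrillar genes went both ways. LOC119900379, annotated as type XXIV, a minor fibrillar type, had 4.81, 4.22 and 5.39 CPM at 34 °C and 8.19, 28.2 and 20.3 CPM at 26 °C, with no overlap (log2 fold change -1.97, SE 0.46, adjusted p = 0.0909, and -2.32 with adjusted p = 0.0110 without control replicate 1). The type XI gene col11a2, whose protein is best known from cartilage fibrils, had 53.5, 35.8 and 51.5 CPM at 34 °C and 1.42, 18.4 and 17.4 CPM at 26 °C. Every heat library was above every control library, and the lowest value by far was that of control replicate 1. Its log2 fold change was 1.93 (SE 0.76, adjusted p = 0.259), and without that library it was 1.41 with an adjusted p of 0.0207.

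Type II and type XXVII are likewise typical of cartilage. The type II gene col2a1a had 38.7, 14.7 and 17.3 CPM at 34 °C and 3.99, 17.2 and 8.48 CPM at 26 °C, which overlapped (log2 fold change 1.25, SE 0.58, adjusted p = 0.335). Its copy col2a1b had 0, 0 and 0.385 CPM at 34 °C and 0.944, 0.645 and 1.56 CPM at 26 °C, and passed the filter through the control group alone. The type XXVII gene col27a1b had 16.4, 15 and 13.1 CPM at 34 °C and 2.53, 12.6 and 11.4 CPM at 26 °C, again with control replicate 1 lowest (0.74, SE 0.54, adjusted p = 0.537). The cartilage, bone and skin markers, 3 of 5 tested and 0 past the threshold, summed to 31.7 to 42.1 CPM at 34 °C and 42.4 to 54.8 CPM at 26 °C. Their part in the values of col2a1a, col11a2 and col27a1b was not tested.

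Type IV chains, the network of basement membranes, had fold changes of either sign, and 0 of 6 tested genes passed. The alpha-1-like gene LOC119904231 had 46.0, 40.0 and 37.8 CPM at 34 °C and 138, 66.9 and 61.4 CPM at 26 °C, without overlap (log2 fold change -1.11, SE 0.35, adjusted p = 0.182). The alpha-2-like gene LOC119903684 had 90.7, 68.5 and 63.8 CPM at 34 °C and 165, 108 and 124 CPM at 26 °C, also without overlap (-0.83, SE 0.28, adjusted p = 0.202). A second alpha-1-like gene, LOC119884534, had the highest TPM of type IV, 31.2 ± 1.64 at 34 °C and 47.6 ± 5.97 at 26 °C, and its groups were apart in TPM but overlapped in CPM (-0.64, SE 0.33, adjusted p = 0.383). LOC119902146, also alpha-1-like, had 16.8, 9.75 and 12.3 CPM at 34 °C and 21.4, 22.7 and 20.3 CPM at 26 °C (-0.73, SE 0.28, adjusted p = 0.246).

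The alpha-5 and alpha-6 chains, which in mammals occur in basement membranes around smooth muscle, had fold changes of the opposite sign. The gene col4a5 had 72.2, 51.4 and 66.9 CPM at 34 °C and 36.9, 53.6 and 51.1 CPM at 26 °C, and col4a6 had 16.1, 9.63 and 12.6 CPM at 34 °C and 6.99, 9.99 and 9.14 CPM at 26 °C. In both genes the groups overlapped through heat replicate 2 and control replicate 2. The log2 fold changes were 0.43 (SE 0.26, adjusted p = 0.457) and 0.55 (SE 0.31, adjusted p = 0.427). Whether they differ from those of the alpha-1-like and alpha-2-like genes was not tested. Both genes lie head to head on scaffold NW_024041150.1, col4a6 at 33962340 to 34078907 on the minus strand and col4a5 at 34081427 to 34141553 on the plus strand, with 2519 bases between them. A second head-to-head pair, the alpha-4-like LOC119882524 and col4a3, was at or near 0 reads in every library.

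Of the other basement membrane types, the type XVIII gene LOC119903834, a proteoglycan-like collagen, had 6.63, 3.51 and 5.64 CPM at 34 °C and 21.7, 12.1 and 12.8 CPM at 26 °C, without overlap (log2 fold change -1.57, SE 0.38, adjusted p = 0.10). The second type XVIII gene, LOC119912643, had 18.3, 17.8 and 16.6 CPM at 34 °C and 20, 18.9 and 24.4 CPM at 26 °C (-0.26, SE 0.24, adjusted p = 0.628). Type VII forms the anchoring fibrils that tie a basement membrane to the tissue under it. Its gene col7a1 had 5.85, 9.28 and 11.4 CPM at 34 °C and 0.343, 2.71 and 3.54 CPM at 26 °C, every heat library above every control library (2.04, SE 0.73, adjusted p = 0.220). Without control replicate 1, the lowest library, it was 1.52 with an adjusted p of 0.0516.

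The transmembrane collagens hold the gene with the smallest p of all members. Type XVII is the collagen of hemidesmosomes, the junctions that fasten epithelial cells to their basement membrane. Its gene col17a1b (NW_024041373.1, 17961084 to 17988396, plus strand) had 13.9, 13.9 and 12.3 CPM at 34 °C and 65.3, 48.8 and 65.1 CPM at 26 °C. The heat libraries lay close together at less than the lowest control library, and the gene was 4.47-fold lower at 34 °C (log2 fold change -2.16, SE 0.24, edgeR adjusted p = 0.0203). Without control replicate 1 the log2 fold change was -2.08 with an adjusted p of 0.00923. The adjusted p was 0.0746 with limma on log2(TPM + 1) and no filter, and 0.0960 with the replicate number as a block. Leaving out any other library ended the call, with adjusted p from 0.0601 to 0.170, while the log2 fold change stayed between -2.29 and -2.06. The other 3 tested transmembrane genes were below 0 too. Type XXIII col23a1a had 1.56, 3.15 and 3.40 CPM at 34 °C and 10.9, 9.54 and 6.92 CPM at 26 °C (-1.73, SE 0.40, adjusted p = 0.0900), and type XIII col13a1 averaged 5.91 ± 0.977 CPM at 34 °C and 11.2 ± 5.26 CPM at 26 °C (-0.92, SE 0.42, adjusted p = 0.331).

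FACIT collagens sit on the surface of fibrils without forming fibrils themselves. LOC119897844, annotated as type XIV-like (NW_024040152.1, 21440399 to 21591631, plus strand), had 9.61, 10.9 and 10.8 CPM at 34 °C and 31.9, 22.8 and 33.9 CPM at 26 °C. The groups did not overlap, and the gene was 2.83-fold lower at 34 °C (log2 fold change -1.50, SE 0.26, edgeR adjusted p = 0.0491). It passed the threshold narrowly. The adjusted p was 0.0502 with RLE scaling, 0.0523 with no count filter and 0.0517 in a robust fit. It was 0.193 with limma on log2(TPM + 0.1), 0.170 on log2(TPM + 1), 0.286 there with no filter, and 0.136 with the replicate block. It stayed under the threshold with DESeq2 (0.000183), upper-quartile scaling (0.0486) and genes alone (0.0382). It was 0.0207 without control replicate 1 and 0.0898 to 0.269 without any other library. Within the span of LOC119897844, on the same strand, lie lncRNA transcripts MSTRG.5761.2, with 38 reads in control replicate 2, and MSTRG.5761.3, with 20 in heat replicate 3. Both had 0 reads in the other libraries, and the assignment of reads between them and the gene was not tested. A second type XIV-like gene, LOC119898290, had 0.390, 0.535 and 0.513 CPM at 34 °C and 1.42, 1.81 and 1.89 CPM at 26 °C, but passed the filter through the control group alone.

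Types XVI and XXI had the same order of groups. The type XVI gene col16a1 had 28.8, 23.8 and 25.7 CPM at 34 °C and 52.3, 51.8 and 74.4 CPM at 26 °C, without overlap (log2 fold change -1.19, SE 0.25, adjusted p = 0.0722, and 0.0208 without control replicate 1). For col21a1 the values were 13.1, 11.1 and 12.3 CPM at 34 °C and 14.7, 30.0 and 40.5 CPM at 26 °C (-1.22, SE 0.38, adjusted p = 0.172, and 0.0150 without control replicate 1). The heat libraries of both genes were tightly grouped, and in col21a1 the lowest control library was replicate 1. The most abundant FACIT gene, col12a1b of type XII, had 666, 789 and 725 CPM at 34 °C and 697, 1125 and 1575 CPM at 26 °C. The groups of col12a1b overlapped through control replicate 1 (-0.64, SE 0.40, adjusted p = 0.470).

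Type VI makes beaded filaments that link cells to the fibrils around them. All 8 type VI genes were tested and 0 passed with all 6 libraries, while all 8 had a log2 fold change below 0 and in 6 every heat library lay below every control library (75.0%, where 14.4% of all tested genes did). The 8 genes summed to 982, 764 and 635 CPM at 34 °C and 2077, 1543 and 1712 CPM at 26 °C. The alpha-1 gene col6a1 had 239, 180 and 156 CPM at 34 °C and 975, 457 and 560 CPM at 26 °C (log2 fold change -1.79, SE 0.40, adjusted p = 0.0815). Its alpha-2 partner col6a2 had 75.2, 51.3 and 52.5 CPM at 34 °C and 193, 114 and 170 CPM at 26 °C (-1.42, SE 0.31, adjusted p = 0.0797). Without control replicate 1, the highest library for both, the log2 fold changes were -1.39 and -1.24 with adjusted p of 0.0232 and 0.0361. The 2 genes whose groups overlapped in CPM are annotated as alpha-6-like. LOC119898159 had 237, 190 and 142 CPM at 34 °C and 191, 353 and 269 CPM at 26 °C (-0.51, SE 0.34, adjusted p = 0.502), and LOC119898160 had 155, 104 and 63.0 CPM at 34 °C and 105, 195 and 124 CPM at 26 °C (-0.40, SE 0.40, adjusted p = 0.665).

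The alpha-1 and alpha-2 genes are neighbours on scaffold NW_024040485.1, col6a2 at 24594196 to 24608091 and col6a1 at 24613573 to 24637117, both on the minus strand with 5481 bases between them. A row of 3 alpha-3 genes lies on the plus strand of NW_024040596.1, in the order LOC119903449 (30413522 to 30417371), col6a3 (30427570 to 30452794) and LOC119903447 (30452889 to 30482891). In this row LOC119903449 had 42.5, 38.1 and 37.4 CPM at 34 °C and 82.9, 65.1 and 94.9 CPM at 26 °C (log2 fold change -1.04, SE 0.24, adjusted p = 0.0900). The middle gene, col6a3, had 40.8, 38.7 and 33.4 CPM at 34 °C and 54.5, 58.0 and 63.1 CPM at 26 °C (-0.64, SE 0.22, adjusted p = 0.206). The last, LOC119903447, had 181, 152 and 142 CPM at 34 °C and 462, 285 and 413 CPM at 26 °C (-1.29, SE 0.31, adjusted p = 0.0978). In all 3 the groups were apart in CPM. In TPM those of col6a3 overlapped, at 3.41, 4.88 and 4.31 TPM at 34 °C and 4.85, 7.52 and 6.99 TPM at 26 °C. The end of LOC119903448, which had 90, 260 and 271 reads at 34 °C and 772, 423 and 421 at 26 °C, overlaps LOC119903449 on the same strand, and gaps this small leave the assignment of reads between these genes uncertain.

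Of the short-chain collagens, which form networks rather than fibrils, only the type VIII gene col8a2 was tested. It had 2.21, 1.07 and 1.80 CPM at 34 °C and 6.22, 1.42 and 4.04 CPM at 26 °C, which overlapped (log2 fold change -1.22, SE 0.60, adjusted p = 0.362). The growth factor gene bmp16, a match that is no collagen gene, had 13, 19.9 and 17.6 CPM at 34 °C and 52.0, 25.3 and 21.7 CPM at 26 °C (-0.97, SE 0.38, adjusted p = 0.257).

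**Figure D3:**
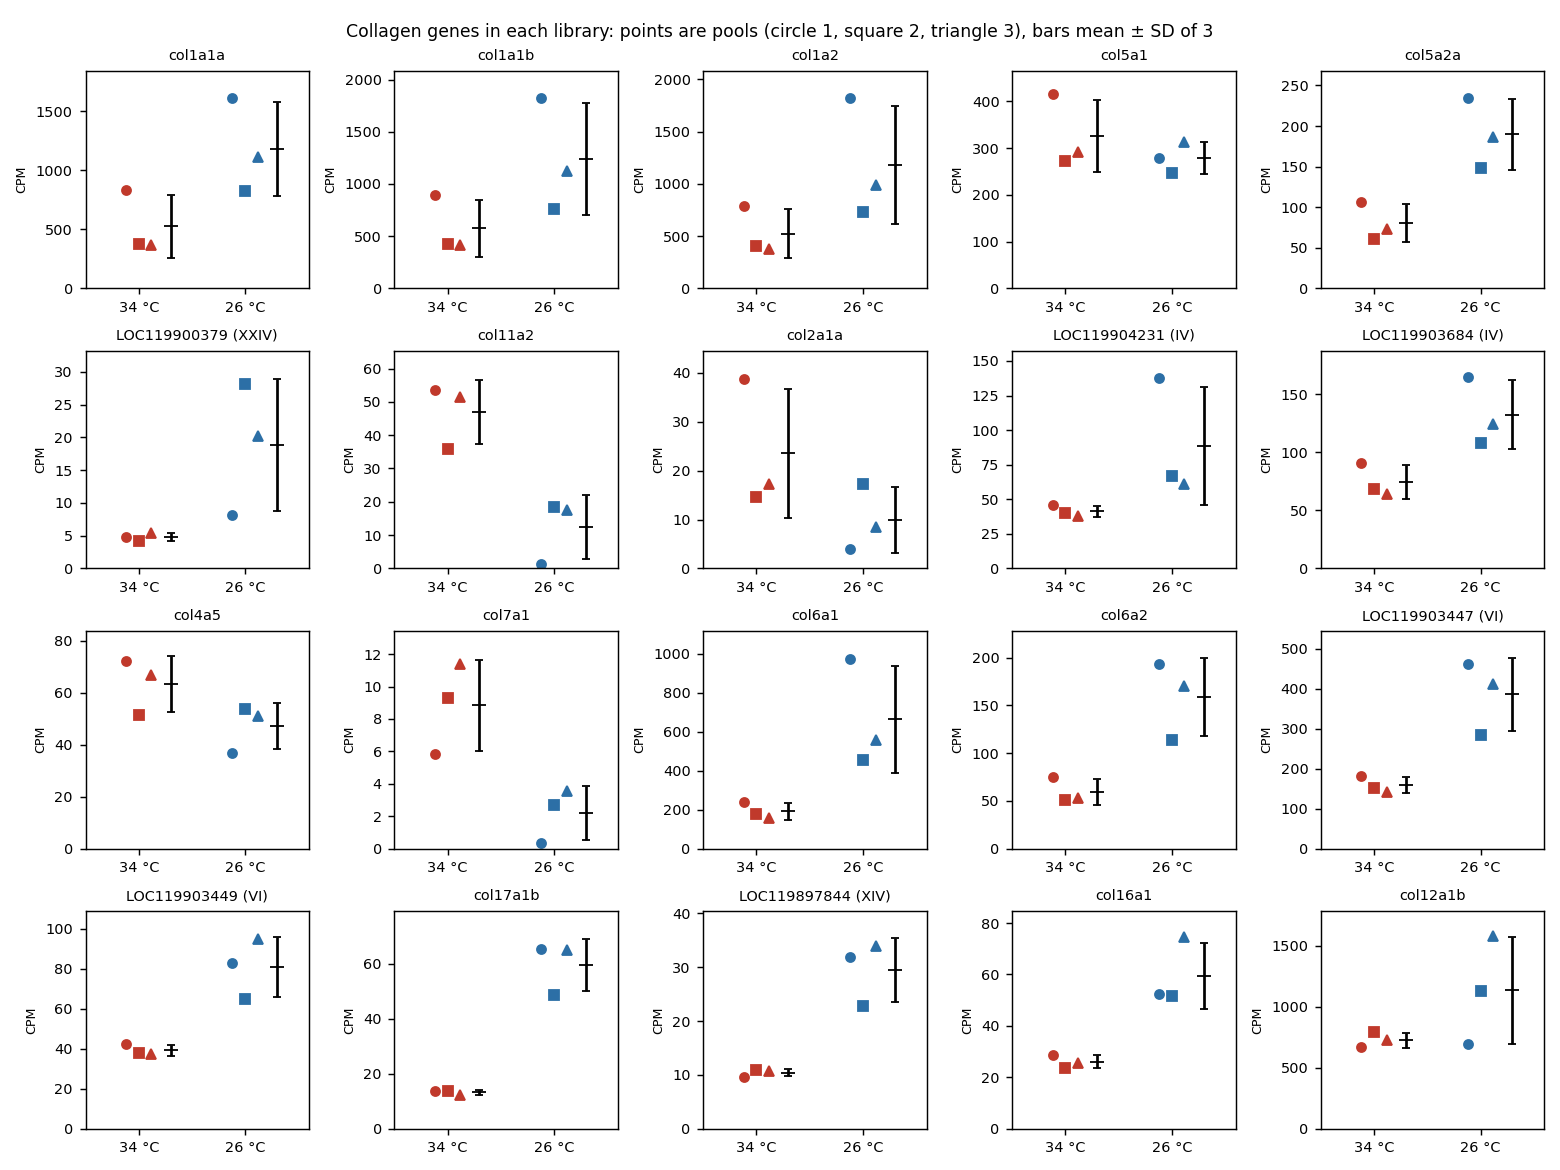
CPM (vertical axes, from 0) of 20 collagen genes in each pool at 34 °C and 26 °C, with the mean and SD of 3 pools as a bar beside the points. The pools are apart in col17a1b, LOC119897844, col16a1 and the 4 type VI genes drawn, and overlap in the type I genes, where the first pool of each temperature is the highest.

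The processing proteins showed no shared direction. Of 18 tested, 0 passed with all 6 libraries, 2 lay lower (11.1%, against 14.4% of all tested genes) and 3 lay higher without overlap (16.7%, against 11.5% of all). The collagen chaperone has a pair of copies. The serpinh1b gene had 18.7, 20.8 and 14 CPM at 34 °C and 6.44, 12.6 and 8.73 CPM at 26 °C, every heat library above every control library (log2 fold change 0.95, adjusted p = 0.216). In TPM its groups overlapped, at 13.7, 23.1 and 15.9 TPM at 34 °C and 5.02, 14.3 and 8.47 TPM at 26 °C. The copy serpinh1a had 4.81, 2.56 and 2.44 CPM at 34 °C and 7.68, 4.71 and 2.39 CPM at 26 °C, which overlapped (-0.62, adjusted p = 0.597).

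Prolyl 4-hydroxylase, which makes the hydroxyproline that stabilises the triple helix against melting, is built on an alpha subunit from p4ha genes. The most abundant, p4ha1b, had 50.8, 86.4 and 119 CPM at 34 °C and 34.0, 56.7 and 141 CPM at 26 °C, with the groups mixed (log2 fold change 0.15, SE 0.54, adjusted p = 0.919). For p4ha2 the values were 29.6, 25.5 and 25 CPM at 34 °C and 21.8, 29.8 and 37.5 CPM at 26 °C (-0.15, SE 0.27, adjusted p = 0.819). The prolyl 3-hydroxylase family genes were all low. The highest, p3h2, averaged 5.96 ± 0.637 CPM at 34 °C and 5.48 ± 1.54 CPM at 26 °C, and the 4 tested had log2 fold changes of -0.15 to 0.46. The smallest p among them was that of p3h4, annotated as inactive, with 1.95, 1.67 and 1.6 CPM at 34 °C and 1.20, 0.451 and 2.14 CPM at 26 °C (adjusted p = 0.753).

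Lysyl hydroxylases make the hydroxylysines that cross-links and sugars attach to. The plod3 gene, whose product also carries glycosyltransferase activity in mammals, had 24.3, 21.9 and 17.4 CPM at 34 °C and 6.26, 12.1 and 10 CPM at 26 °C. Every heat library was above every control library (log2 fold change 1.17, SE 0.32, adjusted p = 0.131, and 0.95 with adjusted p = 0.0532 without control replicate 1, its lowest library). DESeq2 gave plod3 an adjusted p of 0.0286. The more abundant plod2, whose product acts on the telopeptides, had 52.6, 47.3 and 45.1 CPM at 34 °C and 49.2, 61.9 and 57.9 CPM at 26 °C, which overlapped (-0.22, SE 0.22, adjusted p = 0.665). The plod3 gene overlaps LOC119912601 on the opposite strand, which had 8 to 62 reads at 34 °C and 27 to 68 at 26 °C. No label or header states whether reads were counted by strand, so reads of such pairs cannot be told apart.

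The procollagen C-proteinase and its enhancer also differed in sign. The proteinase gene bmp1a had 17.5, 24 and 22.3 CPM at 34 °C and 22, 15.1 and 18.8 CPM at 26 °C (log2 fold change 0.19, SE 0.26, adjusted p = 0.760). The enhancer gene pcolcea had 10.5, 9.46 and 7.12 CPM at 34 °C and 36.2, 14.2 and 32.5 CPM at 26 °C, without overlap and with widely spread control libraries (-1.62, SE 0.39, adjusted p = 0.101, and 0.00840 by DESeq2). Whether bmp1a and pcolcea differ in their fold changes was not tested.

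Among the lysyl oxidases, loxl2a had 89.6, 56.1 and 45.3 CPM at 34 °C and 32.0, 20.4 and 35.3 CPM at 26 °C (log2 fold change 1.12, SE 0.34, adjusted p = 0.163). The loxl1 gene, which in mammals acts on elastin, had 6.76, 12.8 and 11.9 CPM at 34 °C and 21.6, 33.1 and 16.1 CPM at 26 °C (-1.16, SE 0.37, adjusted p = 0.184). Neither gene had overlapping groups. The founding member of the family, loxa, had 18.4, 19.4 and 23.6 CPM at 34 °C and 20.1, 18.2 and 43.2 CPM at 26 °C, with control replicate 3 alone high (-0.40, SE 0.37, adjusted p = 0.633). The loxl2a gene overlaps r3hcc1 on the opposite strand, which had 73, 125 and 105 reads at 34 °C and 161, 122 and 82 at 26 °C. The collagen-binding protein gene sparc had 108, 61.6 and 52.1 CPM at 34 °C and 168, 75.3 and 112 CPM at 26 °C, in the same order of libraries as the type I genes within each group and with the groups overlapping (-0.69, SE 0.40, adjusted p = 0.440).

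**Figure D4:**
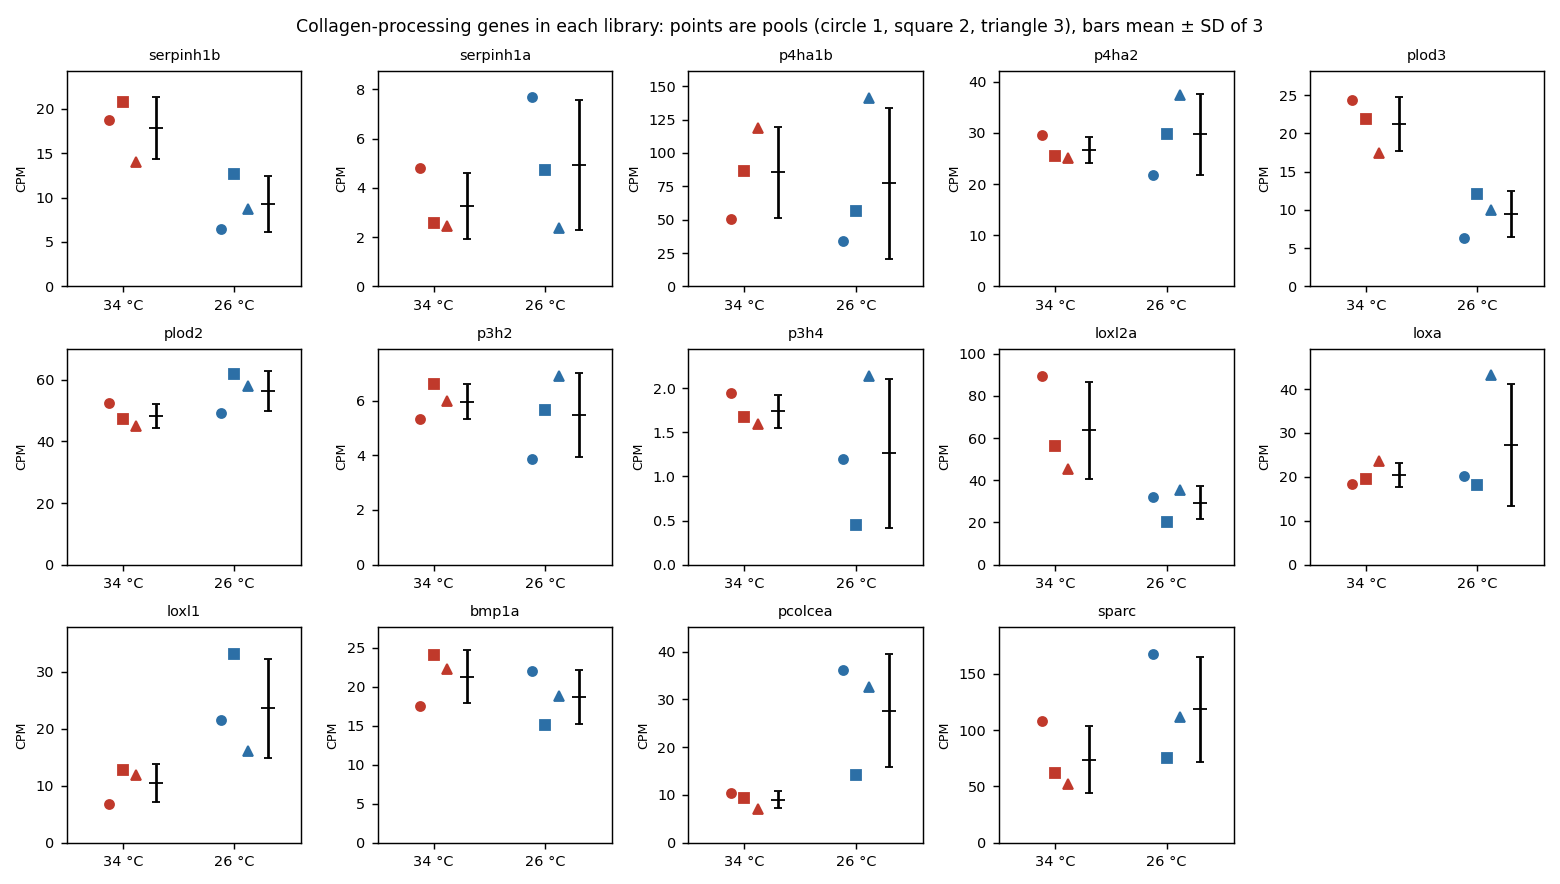
CPM (vertical axes, from 0) of 14 collagen-processing genes in each pool at 34 °C and 26 °C, with the mean and SD of 3 pools as a bar beside the points. The pools at 34 °C are above those at 26 °C in serpinh1b, plod3 and loxl2a and below them in loxl1 and pcolcea.

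Ratios of TPM inside a library do not depend on its depth or scaling, and 10 such ratios were set side by side. The pairs were picked after their values were seen, so they are descriptions without a test. In 6 every heat library was above every control library, in 4 the groups overlapped, and in 0 every heat library was below. A ratio can be written either way up, so this direction follows from the gene placed on top and has no meaning of its own. The share of other gene pairs with groups apart was not computed. The 2 genes named as type I alpha-1 together had 2.05, 1.85 and 1.96 times the TPM of col1a2 at 34 °C and 1.77, 2.02 and 2.13 times at 26 °C (1.95 ± 0.101 and 1.97 ± 0.185, SD, n = 3 each). In mammals the type I helix holds 2 alpha-1 chains for each alpha-2 chain, and its chain makeup in this fish was not measured. The ratios of transcripts overlapped between the groups. Overlap was also found for col1a1a to col1a1b (0.850 ± 0.0313 at 34 °C and 0.927 ± 0.0947 at 26 °C), for col6a1 to col6a2 (2.44 ± 0.243 and 3.23 ± 0.710), and for LOC119904231 to LOC119903684 (0.756 ± 0.0634 and 0.876 ± 0.234).

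As written, the ratios with groups apart were higher at 34 °C. The ratio of col5a1 to col5a2a was 2.73, 3.26 and 2.76 at 34 °C and 0.790, 1.1 and 1.14 at 26 °C. That of col4a5 to LOC119903684 was 0.668, 0.633 and 0.881 at 34 °C and 0.188, 0.417 and 0.346 at 26 °C. For plod3 to plod2 it was 0.449, 0.451 and 0.378 at 34 °C and 0.124, 0.190 and 0.169 at 26 °C. The other 3 were serpinh1b to serpinh1a (6.16 ± 2.21 at 34 °C and 2.45 ± 1.46 at 26 °C), serpinh1b to col1a1a (0.111 ± 0.0482 and 0.0260 ± 0.0165) and loxl2a to loxa (1.51 ± 0.704 and 0.551 ± 0.183). Of the summed collagen TPM, type V took 8.39 ± 0.484% at 34 °C and 5.12 ± 0.564% at 26 °C, and type VI 22.7 ± 2.17% at 34 °C and 26.8 ± 1.62% at 26 °C.

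**Figure D5:**
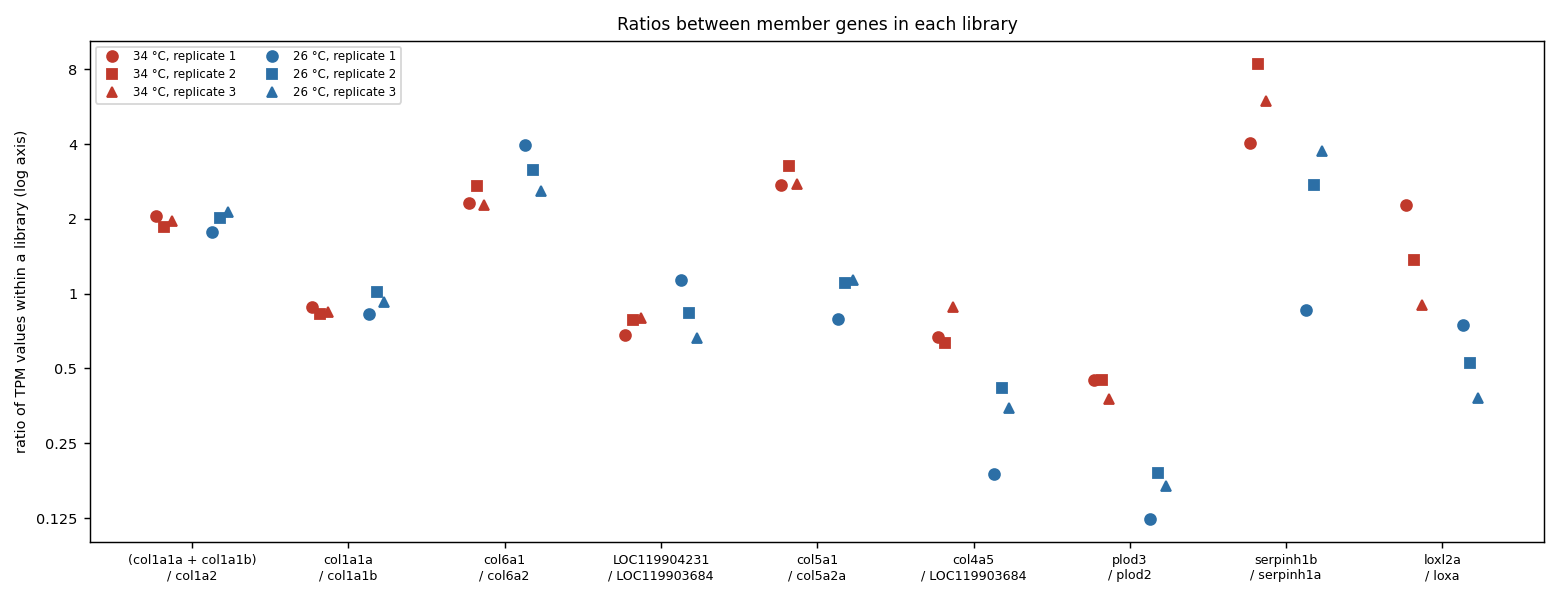
Ratio of TPM values between 9 pairs of genes (vertical axis, log scale) in each library (symbols 1, 2 and 3 are the replicates, 34 °C left and 26 °C right in each pair). The first ratio, of type I, lies near 2 in all 6 libraries. The temperatures overlap in the first 4 pairs, and the libraries at 34 °C lie above those at 26 °C in the last 5.

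The genes around this pathway gave few single-gene calls with all 6 libraries, but in some lists many genes had groups apart. Every heat library lay below every control library in 7 of 17 tested collagen receptors and binding proteins and 7 of 19 TGF-beta genes. The same held in 4 of 8 elastic fibre genes, 4 of 29 folding partners and 3 of 15 proteases and inhibitors. Of all tested genes 14.4% did. Higher without overlap were 0, 0, 2, 2 and 2 genes of these lists, beside 11.5% of all. Of 29 tested partners in collagen folding and secretion, 0 passed and the median log2 fold change was -0.15. Without control replicate 1 the median was 0.21 and 6 of 30 were higher, where 4.61% of all tested genes were. These were the genes hspa5, canx, calr, pdia3 and ppib of folding proteins of the endoplasmic reticulum and the transcription factor gene creb3l1. The largest of these changes was that of hspa5, which had 187, 149 and 130 CPM at 34 °C and 89.5, 51.3 and 20.8 CPM at 26 °C (1.53, adjusted p = 0.186, and 2.13 with 0.0272 without that library). In that fit 0 of the 30 were lower. With all 6 libraries, fkbp10b had the smallest p of this list and was lower without overlap. It had 1.56, 3.27 and 1.67 CPM at 34 °C and 14.7, 5.87 and 8.81 CPM at 26 °C (-2.16, SE 0.49, adjusted p = 0.0852). Of 15 tested N-proteinases, collagen-degrading proteases and inhibitors, 0 passed and the median was -0.52, which was 0.05 without control replicate 1. There 1 of the 15 was higher, the gelatinase gene mmp9, with 6.63, 6.42 and 4.11 CPM at 34 °C and 1.42, 1.29 and 1.48 CPM at 26 °C (2.03, SE 0.38, adjusted p = 0.0555 with all libraries, and 2.05 with 0.0287 without that one). Of 17 tested collagen receptors and binding proteins, 1 was lower, where 0.394% of all tested genes were, and the median was -0.68. That gene, itga11a, encodes the alpha chain of an integrin that binds fibrillar collagen, and had 2.34, 1.19 and 2.18 CPM at 34 °C and 8.37, 18.4 and 14.6 CPM at 26 °C (-2.87, SE 0.44, adjusted p = 0.0367). Of 19 tested genes of TGF-beta signalling, a main inducer of collagen genes, 0 passed and the median was -0.33. Of 8 tested elastic fibre genes 1 was lower, with a median of -0.50. This was emilin1a, an elastic fibre glycoprotein gene, with 1.43, 1.55 and 1.09 CPM at 34 °C and 14, 7.74 and 8.15 CPM at 26 °C (-2.88, SE 0.40, adjusted p = 0.0299). Without control replicate 1, 3 of the 17 receptors and binding proteins and 2 of the 8 elastic fibre genes were lower, with medians of -0.47 and -0.44. In that fit 4.11% of all tested genes were lower. Of the 19 TGF-beta genes 0 passed there, with a median of -0.23. The calls of itga11a and emilin1a ended when a library other than control replicate 1 was left out, with adjusted p of up to 0.220 and 0.200.

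Members outside the test had few or no reads. The 15 members without reads were 3 fibrillar, 3 basement membrane and 7 other collagens and 2 enzymes. The type X gene col10a1a, known from growth cartilage, had at most 2 counts in any library, and the type IX genes col9a1a, col9a2 and col9a3 had at most 6, 15 and 6 counts. Both type XI genes of the neighbouring pair on NW_024040374.1, si:dkey-21p1.3 and LOC119900717, had at most 13 and 17 counts. With all 6 libraries these genes stayed below the count filter and were not tested. In col9a2 every heat library lay below every control library, at 0, 0.178 and 0.257 CPM against 0.601, 0.967 and 0.906 CPM. The untested loxl4 lay lower too, at 0, 0.238 and 0.128 CPM against 0.343, 0.258 and 0.988 CPM. Higher without overlap were the type XII-like LOC119915902 (0.779, 0.714 and 0.577 CPM against 0.0858, 0.193 and 0.412 CPM) and LOC119916557 (0.130, 0.297 and 0.257 CPM against 0.0858, 0 and 0 CPM). In the other genes named in this paragraph the groups overlapped.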

How the data were processed

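Total RNA of 3 intestine pools per temperature was sequenced. For every gene and every lncRNA transcript the authors deposited raw counts and TPM in each library, per the file headers. The tools listed, without roles, in the submitters' processing notes are StringTie 1.3.3, HISAT2 2.1.0 and DESeq. The genome build and strand setting are not given in the sources used here, and positions are those of the deposited gene table. Protein and promoter sequences were not used here.

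Genes and lncRNA transcripts were fitted together with edgeR 4.0.16 in R 4.3.3, leaving out 2488 assembled genes whose counts equal their summed lncRNA transcripts. Features passed filterByExpr (minimum count 10, minimum total 15), were scaled by TMM and tested with the quasi-likelihood F test, ~ temperature, and p was adjusted by Benjamini-Hochberg over all 20326 tested genes (threshold 0.05). The standard error is the absolute log2 fold change over the square root of F. The scripts were tested on simulated data. Alternatives were upper-quartile or RLE scaling, DESeq2 1.42.0, a fit without the count filter, genes alone, a robust fit, a replicate block, each library left out, and limma 3.58.1 on log2(TPM + 1) or log2(TPM + 0.1), keeping genes whose mean TPM reached 0.5, or all genes for the first.

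Members, classes and lists were chosen with earlier results of these data known. The rule named the members past the threshold, the most abundant and the smallest p of each subclass, both serpinh1 genes, the 5 largest changes among members called with a library left out or without overlap, neighbouring collagen genes within 20 kb and up to 3 called genes of each context list. In addition, 16 tested members were named after their values were seen: col1a1a, col1a2, col2a1a, col5a1, col5a2a, col13a1, col16a1, col23a1a, col27a1b, LOC119898159, LOC119898160, LOC119898290, LOC119902146, LOC119903684, bmp1a and loxl1, besides genes mentioned only with a level, the 6 folding partners and mmp9 called without control replicate 1, and actc1a. The context genes fkbp10b, mmp14a, mmp14b, mmp23bb and mrc2 were also named after their values were seen. Leaving out members that passed the count filter through a single group was added after the data were seen.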

Additional observations from a re-analysis of the deposited data

How the results depend on the processing

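Of 782 fold changes of 49 named members under the alternatives, 737 kept direction and side of the threshold, 19 lost the call, 20 gained one and 6 changed sign. These 6 belonged to loxa (-0.63 to 0.13), p3h2 (-0.06 to 0.36), p4ha1b (-0.20 to 0.95) and p4ha2 (-0.32 to 0.09), all in fits with 1 library left out, and 45 members kept their sign in every fit. Members called higher numbered 1 with DESeq2 and 0 to 1 with a library left out. Members called lower numbered 12 with DESeq2, 1 with RLE scaling, with no count filter, in the robust fit, with limma on log2(TPM + 1) and with limma on log2(TPM + 0.1), 0 with limma and no filter, and 0 to 10 with a library left out. Of all genes, 1437 were called with DESeq2, 355 without lncRNA transcripts, 49 with limma and no filter, and 0 to 1825 with a library left out, against 200. The fibrillar median was -0.13 with limma on log2(TPM + 0.1), -0.22 on log2(TPM + 1), -0.03 there with no filter, -0.03 with no count filter, -0.44 over symbol matches only, and -0.70 to -0.44 with a library left out. The basement membrane median was -0.20 with limma on log2(TPM + 1), -0.07 there with no filter and -0.23 with no count filter. With a library left out it was -0.59 to -0.23, and it reversed to 0.49 over symbol matches only. Those leave out the alpha-1-like and alpha-2-like type IV genes and the type XVIII genes. The median of the other collagens was -0.89 with limma on log2(TPM + 0.1), -0.69 on log2(TPM + 1), -0.44 there with no filter, and -1.17 to -0.71 with a library left out. The enzyme median was 0.00 with limma on log2(TPM + 0.1) and -0.16 to 0.11 with a library left out, above 0 without control replicate 3. Leaving out members that passed the count filter through a single group, an alternative added after the data were seen, kept the sign of all 4 class medians. Where no value shows it, the cause was not tested. Depth limits the 31 members with at most 18 counts in any library, which stayed below the count filter.

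With the replicate number as a block, 0 genes and 0 members passed. Over all tested features, same-numbered libraries did not deviate together (correlations -0.0112, -0.0118 and 0.0396), so the numbers are not taken as a pairing. By replicate number, the fibrillar share of collagen TPM was 60.3, 47.5 and 48.9% under heat and 60.7, 47.3 and 49.9% in the control. For the other collagens it was 31.9, 43.8 and 41.7%, and 32.5, 45.6 and 44.2%. Both shares had the same order of numbers in both groups. The basement membrane share, 7.86, 8.73 and 9.43% and 6.75, 7.15 and 5.95%, did not. A replicate effect shared by the groups in these shares was not tested.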
